A study of Ulva lactuca with 7 samples.

Results

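A set of 199 assembled genes of the green seaweed Ulva lactuca had a high level after 24 h of drying and a level close to that of submerged thalli after 72 h. They were chosen from 90206 assembled genes, each represented by its transcript with the highest summed read count, among the 10724 with a GC content of at least 35% and at least 50 counts in the control (called eligible genes here). A member had at least 2.5 times the counts per 1000000 (CPM) of the control in the library dried for 24 h, which 830 eligible genes had (7.74%), and 0.67 to 1.5 times the control in the library dried for 72 h. These 3 libraries therefore chose the members, and the values in them describe the choice. The library dried for 36 h and the 3 libraries of thalli returned to water were not used to choose them.

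The series holds 1 library for each of 7 conditions. Collected thalli (the leaf-like blades of the alga) were acclimatised to the laboratory, and the control stayed submerged throughout. Drying took place at a moisture of 20% and lasted 24, 36 or 72 h, and resubmerged thalli spent 1 h in autoclaved seawater following 1 of these periods. The labels do not say whether the conditions share thalli. The title of the control begins with 24, like those of the 24 h libraries, and what this stands for is not stated. Without replicate libraries, ratios between single libraries have no replicate check, so exact (Clopper-Pearson) 95% intervals cover counting error only and no p-value is given for them. Total counts ran from 63782317 in the library dried for 72 h to 97270080 in the one dried for 24 h. The files do not pair the transcripts with gene names or products, so members are given by assembly identifier and no role can be stated for them. In whole thalli, fewer cells of a type and less RNA per cell cannot be told apart.

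Intertidal Ulva loses water at low tide and takes it up again when the tide returns. Drying concentrates the cell contents, slows photosynthesis and lets reactive oxygen species form, and algae that survive it are known for antioxidant enzymes, protective proteins and repair of the photosynthetic apparatus. Transcripts that are high early in a stress and near the starting level later are a common pattern in plant and algal stress responses.

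The label of a level high at 24 h only did not hold for every member. By description, since the choice favours that library, the one dried for 24 h was the highest of all 7 for 146 members (73.4%, against 11.2% of eligible genes). The one resubmerged after 24 h was the highest for 44 (22.1%, against 10.5%). The library resubmerged after 36 h was so for 5 (2.51%, against 17.4%). For the resubmerged 72 h library these were 3 (1.51%, against 13.0%), and for the dried 36 h library 1 (0.503%, against 8.63%). In the library dried for 36 h, 44 members (22.1%, against 7.91% of eligible genes) were still at least 2.5 times the control. Another 68 (34.2%, against 11.2%) were above 1.5 times but under 2.5 times. At 0.67 to 1.5 times were 66 (33.2%, close to the 37.6% of eligible genes), and 21 (10.6%, against 43.3%) were lower. In the library resubmerged after 24 h, 95 members (47.7%) were at least 2.5 times the control, against 12% of eligible genes and 80.1% of the 417 genes that were at least 2.5 times the control after both 24 h and 72 h of drying.

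The highest 24 h ratio belonged to c32589_g2_i1 (571 nt, 51.8% GC). Its level was 1.87 CPM in the control, 40.7, 9.87 and 2.76 CPM after 24, 36 and 72 h of drying, and 17.7, 3.60 and 5.85 CPM in the libraries resubmerged after these periods. Both 24 h libraries were high, and the ratio of the dried one to the control was 21.8 (95% counting interval 18.2 to 26.4). Next came c26178_g1_i2 (1592 nt, 54.1% GC), with 6.30 CPM in the control, 84.4, 27.2 and 6.55 CPM after drying and 24.2, 0.647 and 3.18 CPM after resubmergence. Its 24 h ratio was 13.4 (12.1 to 14.8), and the library resubmerged after 36 h was the lowest of the 7. Over all members the 24 h ratio had a median of 3.42, with 73 members at 4 or more, 11 at 8 or more and 68 under 3. The member nearest the threshold, c33165_g3_i1, had a ratio of 2.502 (1.01 CPM in the control, 2.53 CPM at 24 h). The nearest gene outside it, c31644_g1_i2, had 6.13 and 15.3 CPM and a ratio of 2.499. At the upper edge of the 72 h band, c34012_g1_i9 lay inside with 1.487 times the control and c32480_g1_i9 outside with 1.501. At the lower edge these were c50563_g1_i1 with 0.6722 and c27583_g1_i2 with 0.6693. Within the 72 h band, 111 further genes had a 24 h ratio of 2 to 2.5.

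Per transcript length their median level in the control was 10.9 FPKM, against 8.78 FPKM over eligible genes, in the library dried for 24 h it was 40.8 FPKM against 6.09 FPKM, and in the one resubmerged after 24 h 26.3 FPKM against 7.25 FPKM. A single member stood far above the rest. Transcript c34767_g1_i1 (1195 nt, 37.9% GC) had 9974 CPM in the control, 46305, 32442 and 11503 CPM after 24, 36 and 72 h of drying and 8476, 6959 and 9309 CPM in the libraries resubmerged after these periods. It was high in the libraries dried for 24 and 36 h and close to the control in the other 4. Its 24 h log2 ratio was 2.22, and 5.48 with the trend on GC content removed. Eligible genes of 35 to under 45% GC had median log2 ratios of -2.97 at 24 h and -4.18 at 72 h. Removing the trend thus also bears on its 72 h ratio, whose adjusted value is not given here. Per length, c34767_g1_i1 had 99359 FPKM at 24 h, the highest of all members. The next member by CPM, c33312_g1_i4 (993 nt, 59.5% GC), had 1330 CPM in the control, 3988, 2469 and 1761 CPM after drying and 4566, 1615 and 1658 CPM after resubmergence, so that its 2 highest libraries were those of the 24 h period.

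All members together took 1.75% of the counts of the control library, 7.35%, 4.78% and 1.997% when dried for 24, 36 and 72 h, and 2.906%, 1.29% and 1.81% after resubmergence from these periods. The Wilson 95% interval of the 24 h share was 7.345% to 7.356%. Such intervals cover counting error only, because each condition has 1 library. PCR copies of a molecule may be counted more than once, and the intervals would then be too narrow even for counting error. Without c34767_g1_i1 the shares were 0.752% in the control, 2.72%, 1.54% and 0.847% after drying, and 2.06%, 0.589% and 0.884% after resubmergence. In the library resubmerged after 24 h, the share of the other members was thus above its control value while c34767_g1_i1 was not.

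**Figure D1:**
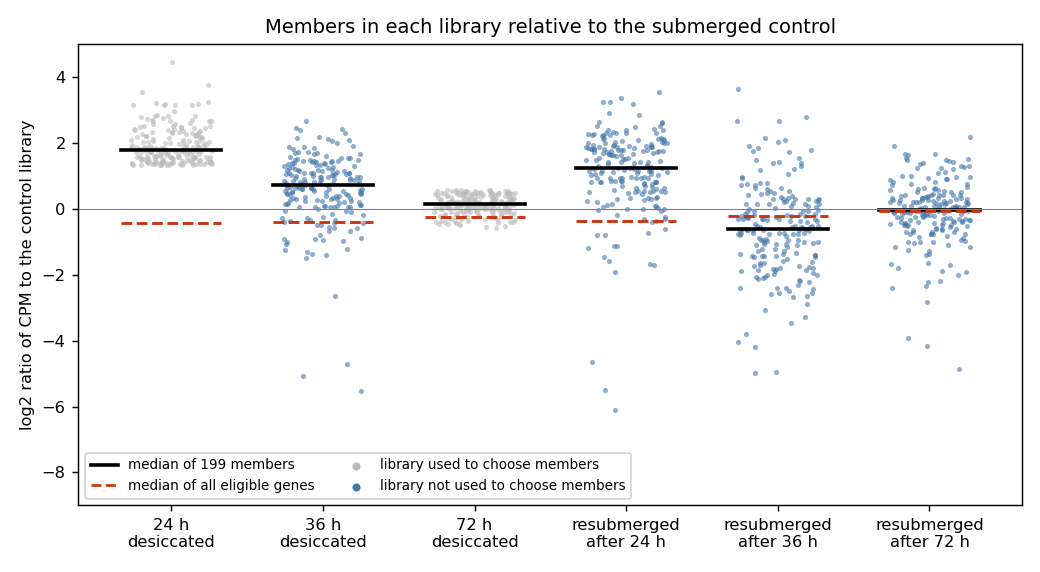
Log2 ratio of CPM to the control library (vertical axis) for each of the 199 members (points) in the 6 other libraries (horizontal axis). Black lines are medians of members and dashed red lines medians of all 10724 eligible genes; the 24 h and 72 h desiccated libraries chose the members. Medians of members were 0.71 after 36 h of drying and 1.23, -0.62 and -0.02 in the libraries resubmerged after 24, 36 and 72 h.

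After 36 h of drying the members' median log2 ratio to the control was 0.71, and that of all eligible genes was -0.40. The members' median lay between those of 24 h (1.77) and 72 h (0.15), which the rule had limited. Single members differed, and 21 were below the 72 h band at 36 h. Of the 199 members, 44 (22.1%) were at least 2.5 times the control, against 7.91% of eligible genes. At least 2-fold higher were 72 members (36.2%, background 11.8%), and at least 2-fold lower were 12 (6.03%, background 30.3%). The control library is also part of the choice of members, so these shares are not independent of that choice. Changing the scaling of the libraries moved the median of all eligible genes by more than 0.1, from -0.40 with column sums to -0.23 with trimmed means (TMM), and members were 1.11 above it, a distance that no scaling can alter because it shifts all genes alike.

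The member with the highest 36 h ratio was c28213_g1_i1 (206 nt, 62.1% GC). It had 1.41 CPM in the control, 12.6, 9.01 and 1.003 CPM after 24, 36 and 72 h of drying, and 8.78, 5.77 and 0.700 CPM after resubmergence. The 24 h and 36 h libraries of both states were high and both 72 h libraries were below the control, with a 36 h ratio of 6.37 (5.12 to 8.004). Transcript c34428_g1_i3 (1267 nt, 59.6% GC) had 243 CPM in the control, 1376, 1328 and 337 CPM after drying and 770.4, 317 and 481 CPM after resubmergence, a 36 h ratio of 5.46 (5.37 to 5.55). Its levels at 24 and 36 h of drying were nearly equal. The 2 lowest 36 h ratios, of c34211_g3_i1 and c27598_g1_i1, rested on 3 counts each at 36 h and are described below with another transcript of like levels.

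The 3 libraries returned to water for 1 h differed in the members' levels. After 24 h of drying most members were still above the control, after 36 h most were below it, and after 72 h they were near it. The median log2 ratio to the control was 1.23 in the library resubmerged after 24 h, -0.62 after 36 h and -0.02 after 72 h, where eligible genes had -0.37, -0.23 and -0.06. Relative to the eligible genes, which removes the choice of scaling, the members stood at 1.597, -0.38 and 0.04. The sign of the 72 h median against the control turned with the scaling, for the same 199 members from -0.35 with TMM to 0.09 with library totals implied by the FPKM values.

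In the library resubmerged after 24 h, 119 members (59.8%) were at least 2-fold above the control, against 16.6% of eligible genes, and 11 (5.53%) at least 2-fold below, against 31.4%. In the one resubmerged after 36 h, 21 members (10.6%) were higher, against 16.5%, and 72 (36.2%) lower, against 22.8%. After 72 h, 22 members (11.1%) were higher, against 17.7%, 26 (13.1%) lower, against 18.1%, and 114 (57.3%) within 0.67 to 1.5 times the control, against 42.9% of eligible genes. Both at least 2-fold above the control after 24 h and at least 2-fold below it after 36 h were 31 members (15.6%), against 1.2% of eligible genes, and the opposite was found for 1 (0.503%), against 1.63%. These 3 comparisons share the control with each other and with the choice of members.

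The highest ratio after resubmergence from 24 h was that of c30216_g1_i2 (242 nt, 52.9% GC). Its level was 3.34 CPM in the control, 23.5, 16.4 and 3.65 CPM after 24, 36 and 72 h of drying and 39.0, 23.1 and 1.36 CPM after resubmergence. It was higher in the resubmerged than in the dried library of both the 24 h and the 36 h period, with 11.7 times the control (10.2 to 13.5) after 24 h and 6.92 times (6.01 to 8.01) after 36 h. Its log2 ratios were 3.54 and 2.79, and 2.44 and 1.99 with all transcripts of the gene summed. Transcript c29559_g1_i2 (3520 nt, 66.5% GC) had 18.0 CPM in the control, 113, 46.8 and 18.6 CPM after drying and 186, 24.2 and 26.7 CPM after resubmergence. Its level was highest in the library resubmerged after 24 h, at 10.3 times the control (9.72 to 10.96), and near the control after resubmergence from 36 and 72 h. The log2 ratio after 24 h was 3.37, and 2.70 with the trend on GC content removed.

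Transcript c22961_g1_i3 (1928 nt, 62.8% GC) had the highest ratio after resubmergence from 36 h, 12.4 times the control (9.63 to 16.3). It had 0.980 CPM in the control, 6.64, 0.415 and 0.909 CPM after drying and 6.06, 12.2 and 0.484 CPM after resubmergence, so that both 24 h libraries and the one resubmerged after 36 h were high. The lowest ratios after 36 h were those of c16349_g1_i1 and c25818_g1_i2, described below. After 72 h the highest ratios were smaller. Transcript c25432_g1_i1 (2808 nt, 52.5% GC) had 1.62 CPM in the control, 4.17, 3.41 and 2.24 CPM after drying and 3.07, 4.21 and 7.27 CPM after resubmergence, a 72 h ratio of 4.49 (3.64 to 5.59). Transcript c33441_g1_i1 (513 nt, 49.5% GC) had 1.90 CPM in the control, 5.34, 3.71 and 2.63 CPM after drying and 1.53, 2.88 and 7.04 CPM after resubmergence, a 72 h ratio of 3.71 (3.04 to 4.55). Both had their highest level in the library resubmerged after 72 h.

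**Figure D2:**
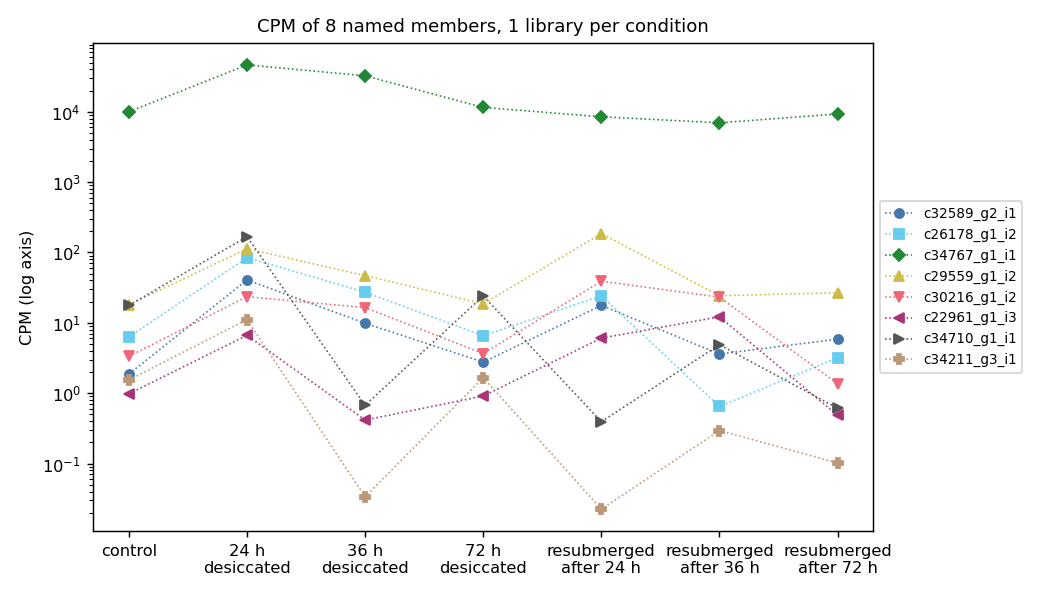
CPM on a log axis (vertical) of 8 named members in the 7 libraries (horizontal), with 1 point per library; dotted lines only join points of 1 transcript. Most of the 8 peak in a 24 h library, c34767_g1_i1 lies far above the rest, and c34710_g1_i1 and c34211_g3_i1 are low in the same 4 libraries.

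Ratios between libraries that did not choose the members are free of the shared control. Resubmergence after 36 h can be read directly from the dried and resubmerged libraries of that period. The median log2 ratio of resubmerged to dried was -1.35 over members and 0.24 over eligible genes. At least 2-fold lower after resubmergence were 121 members (60.8%), against 17.9% of eligible genes, and at least 2-fold higher were 13 (6.53%), against 30.2%. The 417 genes high after both 24 h and 72 h of drying had a median of -1.18 with 55.2% lower, so a low resubmerged 36 h library was not particular to the members.

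The lowest ratio of resubmerged to dried at 36 h was that of c26178_g1_i2, given above, whose dried library was 42.1-fold higher (32.2 to 56.0). Transcript c68224_g1_i1 (1466 nt, 56.4% GC) had 1.43 CPM in the control, 7.92, 4.69 and 2.12 CPM after drying and 2.02, 0.129 and 1.09 CPM after resubmergence, so that its dried 36 h library was 36.2-fold (20.0 to 73.1) above the resubmerged one. In the other direction c22961_g1_i3 was 29.3-fold (21.1 to 41.9) higher after resubmergence, a log2 ratio of 4.88 that was 4.08 with the trend on GC content removed. Transcript c31720_g1_i4 (3003 nt, 57.4% GC) had 1.29 CPM in the control, 7.13, 0.493 and 0.956 CPM after drying and 0.392, 8.11 and 0.318 CPM after resubmergence. Only the library dried for 24 h and the one resubmerged after 36 h were high, and the latter was 16.4-fold (12.1 to 22.8) above its dried partner.

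The 3 resubmerged libraries can also be set against each other. Of the 199 members, 160 (80.4%) had their highest level of the 3 in the library resubmerged after 24 h, against 23.2% of eligible genes and 52.3% of the 417 genes high at both 24 and 72 h. The lowest of the 3 was the library resubmerged after 36 h for 140 members (70.4%), against 34.3% of eligible genes and 65.5% of the 417 genes. The median log2 ratio of the library resubmerged after 24 h to that after 72 h was 1.19 over members, -0.34 over eligible genes and 0.21 over the 417 genes high at both 24 and 72 h. At least 2-fold higher after 24 h were 114 members (57.3%), against 9.23% of eligible genes, and 8 (4.02%) were lower, against 22.1%. In a comparison chosen after seeing the data, against the library resubmerged after 36 h, the median was 1.72 over members and -0.16 over eligible genes, with 142 members (71.4%) higher, against 13.3%, and 5 (2.51%) lower, against 22.7%. The 417 genes had a median of 1.03 in that comparison. By level in the library dried for 72 h, the median log2 ratio of resubmerged after 24 h to after 72 h was 1.68 for the 40 genes high at 24 h and below the 72 h band, 0.62 for the 174 high at 24 h and above the band but under 2.5 times, and -0.66 for 337 genes in the band at 24 h and high at 72 h. The library resubmerged after 72 h was not used to form these classes, but thalli of a period may be shared between its libraries. Each pair of dried and resubmerged libraries shares its drying period, and a difference between the thalli used for the periods cannot be told apart from a difference between the periods.

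The ratio of the libraries resubmerged after 24 h and 72 h was highest for c30216_g1_i2, at 28.6 (23.6 to 35.1), a log2 ratio of 4.84. With all transcripts of its gene summed that log2 ratio was 3.15, below the 4.06 of the next member. Transcript c34490_g3_i1 (1405 nt, 64.6% GC) followed at 16.7 (14.0 to 20.2), with 8.41 CPM in the control, 33.6, 6.62 and 9.67 CPM after drying and 26.8, 3.13 and 1.603 CPM after resubmergence. Both 24 h libraries were high and the others were near or below the control. The lowest ratio was that of c33441_g1_i1, whose library resubmerged after 72 h was 4.61-fold (3.82 to 5.61) above the one after 24 h. The next lowest, of c34211_g3_i1, came from 2 and 8 counts and its interval included 1.

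**Figure D3:**
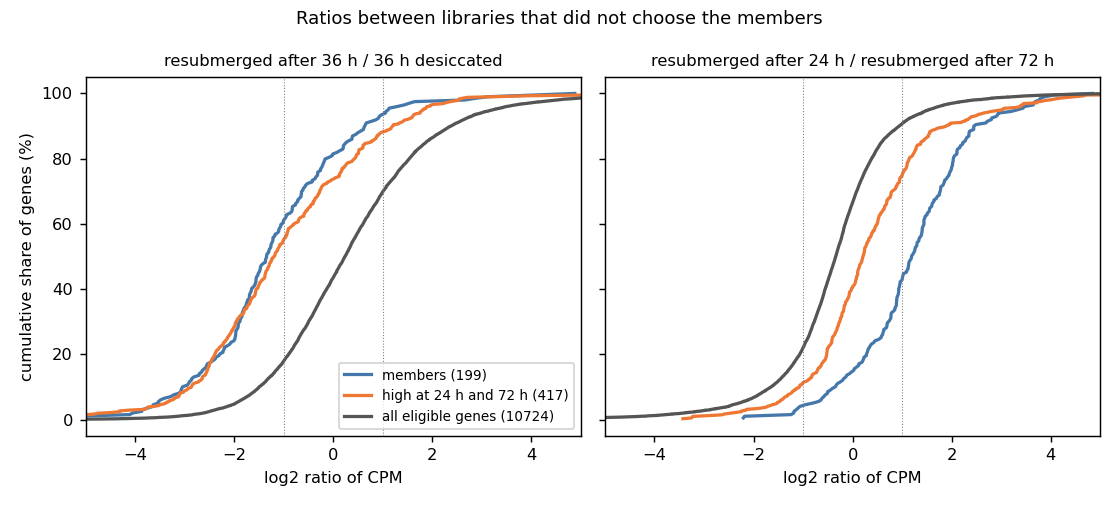
Cumulative share of genes in percent (vertical axis) at or below a log2 ratio of CPM (horizontal axis, from -5 to 5), for 199 members, the 417 genes high at 24 h and 72 h, and 10724 eligible genes; dotted lines mark 2-fold. Left, members and the 417 genes lie to the left of the eligible genes (medians -1.35, -1.18 and 0.24); right, members lie furthest to the right (medians 1.19, 0.21 and -0.34).

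A test across libraries was possible only with the drying periods as stand-ins for replicates. In edgeR's quasi-likelihood test the library dried for 36 h was set against the 3 resubmerged libraries, the 4 that did not choose the members. After Benjamini-Hochberg adjustment 0 of 21892 genes (0%) passed 0.05, and the lowest adjusted p of this edgeR test was 0.485. Before adjustment 2160 genes had a p under 0.05. DESeq2 called 392 genes and limma-voom 0. Among members 14 (7.04%) had an unadjusted p under 0.05 in the edgeR test, all lower after resubmergence. Of the 10712 eligible genes tested, 9.26% had one in either direction, 563 lower and 429 higher. DESeq2 called 6 members, all lower. The 6 were 3.02% of members, and 0.373% of eligible genes were called lower by DESeq2, whose 392 calls were 300 higher and 92 lower. In a simulation as variable as the real libraries, edgeR missed every gene that had been given a large change, so its count of 0 does not show that levels were alike. The lone dried library is assumed to vary like the resubmerged ones.

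The authors' deposited tables compare single libraries. The authors' deposited table of 24 h of drying against the control holds no member at an adjusted p under 0.05 (smallest 0.143), against 0.028% of eligible genes higher and 0.83% lower. At 36 h the authors' deposited table also holds 0 members (smallest adjusted p 0.170), against 0.14% of eligible genes higher and 0.532% lower. The authors' deposited table of resubmergence after 36 h holds 0 members (smallest 0.318), against 0.233% of eligible genes higher and 0.00932% lower.

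The members differed among themselves by their level at 36 h, with these values in the resubmerged libraries. In the library resubmerged after 24 h, the median log2 ratio to the control was 1.56 for the 44 members at least 2.5 times the control at 36 h, 1.19 for the 68 above 1.5 times, 1.16 for the 66 in the band and 1.63 for the 21 below it. The ratio of the libraries resubmerged after 24 h and 72 h had medians of 1.35, 1.26, 1.17 and 0.95 in these classes. The class below the band at 36 h and the class still high at 36 h had close medians after resubmergence from 24 h, and no test compares them. After resubmergence from 36 h the 21 members already below the band at 36 h had the lowest median, -1.86. This class holds all members of the groups with parallel levels described below, at 0.0317 to 0.276 times the control in that library. Its median is the value of 1 of them, c34710_g1_i1. The classes and these ratios also share the control, and the difference was not tested.

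GC content went with the members' levels. Their median GC was 55.3%, against 57.1% for eligible genes, and 12 members (6.03%, against 1.86% of eligible genes) were under 45% GC. Of these 12, 9 were above the control after 36 h of drying (median log2 ratio 1.31) and 1 after resubmergence from 24 h (median -0.97), where 39 of 199 eligible genes of that band were above the control in each library. Of the 50 members of 60% GC or more, 40 were above the control at 36 h (median 0.38) and 48 after resubmergence from 24 h (median 1.95), against 951 and 1927 of 3602 eligible genes. Spearman's rho between GC and the log2 ratio to the control across members was 0.54 in the library resubmerged after 24 h and -0.35 in the one dried for 36 h. Across eligible genes rho was 0.29 and -0.14, so the direction was shared. These rho values are across genes of the same libraries, which are not independent replicates. With the trend on GC removed from each library, 179 members were found, 144 of them shared with the 199, and medians were 1.38 for resubmergence after 24 h and -1.23 for resubmerged against dried at 36 h.

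**Figure D4:**
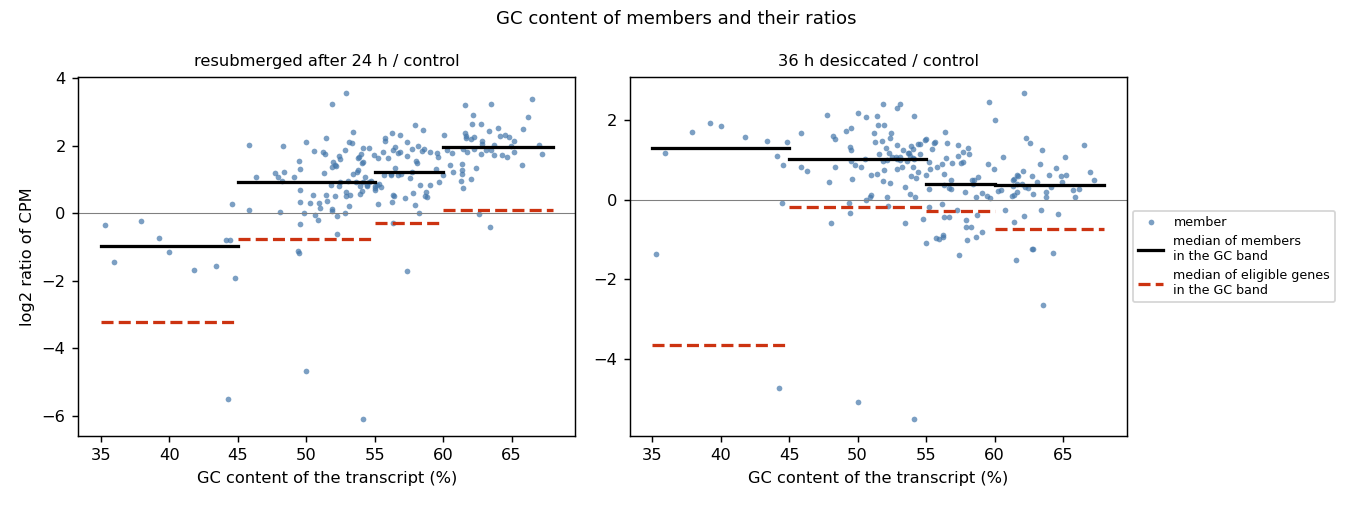
Log2 ratio of CPM to the control (vertical axis) against the GC content of the transcript in percent (horizontal axis) for the 199 members (points), in the library resubmerged after 24 h (left) and the one dried for 36 h (right). Black and dashed red lines are medians of members and of eligible genes in bands of GC, the last band drawn to 68%; on the left the medians of members run from -0.97 under 45% GC to 1.95 from 60% GC.

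The transcripts of members were shorter than those of eligible genes, with a median of 1488 nt against 2202 nt, and 36 (18.1%) were under 500 nt, against 9.31%. A single transcript was assembled for 58 members (29.1%), against 23.4%. For the other 141 the rule was also applied to the sum of all transcripts of the gene, and 120 of them met it. Among 528 other transcripts of these genes with at least 50 counts in the control, 424 were at least 2.5 times the control at 24 h and 382 met the whole rule. Both counts use the libraries that chose the members, and the sums include the chosen transcript. They therefore describe the choice and are no check of it. The share among transcripts of other genes is not given here. The deposited counts sum to 2.56 to 2.914 times the reads implied by the FPKM values, and whether transcripts of a gene share reads is not stated.

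In total, 9 members were at or below 0.1 times the control in at least 1 of the 4 libraries that did not choose them (4.52%, against 9.13%), and 8 of them, all but c68224_g1_i1, formed 2 groups with parallel levels. The groups were chosen after their values were seen and carry no test. Transcripts c34710_g1_i1 (3513 nt, 44.3% GC), c34211_g3_i1 (231 nt, 54.1% GC) and c27598_g1_i1 (242 nt, 50% GC) were present in the 3 libraries that chose the members and low in the other 4. The first had 17.7 CPM in the control, 168, 0.673 and 24.1 CPM after drying and 0.392, 4.88 and 0.611 CPM after resubmergence. The second had 99 counts in the control, 1081, 3 and 106 after drying and 2, 25 and 8 after resubmergence. The last, c27598_g1_i1, had 73 counts in the control, 974, 3 and 69 after drying and 4, 18 and 5 after resubmergence. At 36 h of drying c34211_g3_i1 was 45.8-fold (15.2 to 226) and c27598_g1_i1 33.7-fold (11.1 to 167) below the control. In the library resubmerged after 24 h, c34211_g3_i1 was 68.6-fold (18.5 to 575) and c34710_g1_i1 45.1-fold (32.3 to 65.1) below it, and after 72 h c34710_g1_i1 was 29.0-fold (21.7 to 39.6) and c27598_g1_i1 17.8-fold (7.31 to 56.6) below it. With the trend on GC content removed, the log2 ratios of c34710_g1_i1 were -3.36 and -3.40 in these libraries, in place of -5.50 and -4.86. Over the 7 libraries the log2 ratio of c34710_g1_i1 to the other members of the group had an SD of 0.58 and 0.56, while the log2 CPM of each varied with an SD of 3.04 to 3.30.

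The second group held c34715_g1_i1 (7467 nt), c33856_g1_i1 (2055 nt), c25818_g1_i2 (311 nt), c25901_g1_i1 (214 nt) and c16349_g1_i1 (203 nt). The largest of them, c34715_g1_i1, had 730.0 CPM in the control, 2456, 376 and 760.4 CPM after drying and 3448, 44.7 and 1586 CPM after resubmergence. All 5 were at 0.474 to 0.669 times the control after 36 h of drying, at 0.0317 to 0.0715 times in the library resubmerged after 36 h and at 1.44 to 3.19 times after 72 h. They differed more in the library resubmerged after 24 h, from 1.74 times for c25818_g1_i2 to 6.09 times for c25901_g1_i1. The lowest ratios after resubmergence from 36 h were those of c16349_g1_i1, at 20.0 CPM in the control and 0.635 CPM (31.5-fold lower, 24.0 to 42.2), and c25818_g1_i2, at 18.4 and 0.600 CPM (30.7-fold lower, 23.2 to 41.4). Their log2 ratios to c34715_g1_i1 had SDs of 0.15 to 0.53 over the 7 libraries, while their own log2 CPM varied with SDs of 2.08 to 2.36. Transcript c68224_g1_i1, near absent in the same resubmerged 36 h library, had an SD of 1.49 and was left out. The small SDs of both groups thus follow in part from how the groups were chosen. Without the 9 members, the medians were 1.249, -0.55 and -0.04 in the libraries resubmerged after 24, 36 and 72 h, and -1.32 for resubmerged against dried at 36 h.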

How the data were processed

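Thalli of Ulva lactuca were sequenced with 1 library per condition, 7 in all. Cutadapt, Bowtie2 and DESeq are named in the submitters' processing notes without versions or roles. For the assembler and the counting program, the sources used here give no name. Read counts were used as deposited, and FPKM values, the GC percent and transcript lengths are the authors' own, per the file headers. Adjusted p-values in the authors' deposited tables are for 1 library against 1, by an adjustment that the labels do not name. Implied by FPKM, library totals were 23202937 to 37934762 reads, and the deposited counts sum to 2.56 to 2.91 times these; the reason is not stated.

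CPM is a count divided by the column sum, times 1000000. Counts of 0 were set at a floor of 3 counts (0.0308 to 0.0470 CPM) for log2 ratios, and no member had a count of 0. A difference of 2-fold counted as higher or lower. The limit of 200 members was not reached under the main settings, but some alternative settings reached it. Members and lists were chosen with earlier results of these data known.

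The test used edgeR 4.0.16 (R 4.3.3) with TMM on genes with a mean count of at least 10, and DESeq2 1.42.0 and limma 3.58.1 as alternatives. On simulated data, with genes raised after resubmergence, it recovered changed genes where the spread between libraries was small, and none at the spread fitted here. Its p-values reflect the spread among the 3 resubmerged libraries alone, since the lone dried library adds none. Those libraries differ in drying period, so the spread mixes that difference with variation that may be technical. Per comparison, the 2 members with the highest and the 2 with the lowest ratio were named, with the 2 of highest 24 h ratio, the 2 of highest CPM and those just inside and outside the 24 h threshold; the groups of members near absent in a library were singled out after their values were seen. Scaling, gene summing, filters, thresholds and a GC trend (lowess, span 0.3) were varied.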

Additional observations from a re-analysis of the deposited data

Results flagged for a closer look

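The members' median log2 ratio to the control had opposite signs in the libraries resubmerged after 24 h and after 36 h, 1.23 and -0.62, under the same 1 h of return to water. Signs were also opposite for the 40 genes high at 24 h and below the 72 h band (0.877 and -0.765). The same held for the 174 above that band but under 2.5 times (1.48 and -0.076). Opposite signs were thus not particular to the members, although the 417 genes high at both 24 and 72 h had 2.28 and 1.11. With 1 library each the difference was not tested. In single members, 31 (15.6%) stood at least 2-fold above the control after 24 h and at least 2-fold below it after 36 h, against 1.2% of eligible genes, and 1 (0.503%, against 1.63%) showed the opposite.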

How the results depend on the processing

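The labels give no replicate numbers, but the dried and resubmerged libraries share drying periods. In an edgeR quasi-likelihood fit added after seeing the data, the 3 dried against the 3 resubmerged libraries gave 0 calls of 22319 genes, and 2, both lower after resubmergence, with the drying period as a replicate block. An unadjusted p under 0.05 was found for 4505 and 4697 genes. The dried 24 h and 72 h libraries chose the members, so no count of members is read from it. Medians below are log2 ratios, with members chosen again under each setting. With TMM, DESeq2 size factors, summed transcripts or a control count of at least 10, the choice reached the limit of 200 genes. At that limit only the genes with the highest 24 h ratios are kept. Of the 199 members, 189, 183, 171 and 128 remained under these settings, so their values mix the setting with an exchange of members. With TMM scaling the medians became 0.90 for 36 h of drying, -0.78 and -0.31 for resubmergence after 36 and 72 h against the control, -1.71 for resubmerged against dried at 36 h and 1.49 for resubmerged after 24 h against after 72 h. With DESeq2 size factors the last 4 were -0.88, -0.38, -1.73 and 1.58, and resubmerged after 24 h against after 36 h gave 1.98. Under both scalings 8 members were higher after resubmergence from 36 h and 2 lower after 24 h than after 72 h. The cause was not tested beyond the shift of all genes given above. With a control count of at least 10 the medians were -0.21 for resubmergence after 72 h and 1.46 for 24 h against 36 h, with 28 members higher after resubmergence from 36 h and 18 lower after 24 h than after 72 h. With at least 200 counts, 125 members remained, 27 of them 2.5 times the control at 36 h, and these counts were 5 and 2. A 24 h fold of 4 left 73 members, with medians of 1.24 for 36 h of drying, 1.70, -0.76 and -0.39 for the 3 resubmerged libraries, -1.80 for resubmerged against dried at 36 h, and 1.75 and 2.21 for resubmerged after 24 h against 72 h and 36 h. Of these 73, 6 had higher and 54 had lower levels in the resubmerged than in the dried library of 36 h, and 51 were higher and 3 lower after 24 h than after 72 h. A narrower band at 72 h left 123 members, 25 of them 2.5 times the control at 36 h, 4 with higher and 75 with lower levels in the resubmerged than in the dried library of 36 h, and 75 higher after 24 h than after 72 h. Members lower after 24 h than after 72 h numbered 3 with the GC trend removed, and, in settings chosen after seeing the data, 5 at 45% GC or more and 4 at 500 nt or more. For dried 36 h against the 3 resubmerged libraries, where edgeR called 0 genes, DESeq2 called 392 and edgeR with no filter on low counts 26, and the cause was not tested. Without each resubmerged library in turn edgeR called 0 to 0. Over all alternatives, 145 values of these results stayed within the limits set for them and 45 did not. The 145 include 2 settings that could hardly differ. Lifting the limit of 200 members left the same 199. A 24 h fold of 2 kept that limit and gave 200 genes, 199 of them shared, so a looser 24 h threshold was not tested. For ratios of named members 101 stayed within their counting interval and 39 did not, and those that moved by over 1.5 times stand beside the ratios above. The median for resubmergence after 72 h was 0.05 with totals implied by FPKM and 0.03 for members of at least 45% GC, so its sign is not settled. Leaving out a replicate was not possible for ratios between single libraries. Precision is limited by single libraries and, for the lowest members, by as few as 2 counts.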

Other observations

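Some members share the first part of their assembly identifier, called a component here, and how the assembler formed it is not stated. There were 8 components with more than 1 member, 17 members in all, described after their values were seen and with no test. In component c34396 the 2 members c34396_g1_i16 and c34396_g2_i1 were at 5.70 and 4.91 times the control after resubmergence from 24 h and at 3.31 and 2.63 times after 36 h, where most members were below the control. The 3 members of c32343 were at 0.274, 0.268 and 0.169 times the control after resubmergence from 36 h. The c27562 pair, c27562_g1_i3 and c27562_g2_i1, was at 7.81 and 8.89 times the control after 24 h of drying, 2.58 and 2.68 times after 36 h and 4.28 and 3.50 times after resubmergence from 24 h. The c31704 pair was less alike, with c31704_g1_i2 at 0.495 and c31704_g2_i6 at 1.27 times the control after 36 h of drying. Whether members of a component share reads was not tested.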
